A study of Homo sapiens with 2 samples.

Results

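The regions described here are accessible sites that 2 T-cell leukaemia lines have in common but whose point of highest signal lies at a different place in each line. They come from ATAC-seq, an assay that marks open chromatin by where the Tn5 enzyme can cut and tag DNA, of RPMI-8402 and Jurkat cells. Both are established human lines of T-cell acute lymphoblastic leukaemia (T-ALL), were cultured in the same RPMI-1640 medium and carry no treatment or genotype in their labels. Each line was represented by 1 library with its own list of peaks, and a peak has 1 summit, the base with the highest pileup of fragments. On chromosomes 1 to 22 the lists held 23629 RPMI-8402 and 24437 Jurkat peaks. A pair was formed where 1 RPMI-8402 peak overlapped 1 Jurkat peak by 1 bp or more and neither had another partner, which gave 15948 pairs. The summits lay 300 bp or more apart in 1003 of them, which are called displaced pairs here, a share of 6.29% (95% exact binomial interval 5.92 to 6.68%). The remaining 14945 pairs are the other pairs. The members were chosen by the summit distance itself, so distances, widths and summit positions are described without a test. With 1 library per line no value carries a replicate error, and no difference between the lines was tested. Intervals cover counting error only. All coordinates are on hg19. Which genes lie at the regions, whether those genes have alternative start sites, which sequences the summits hold and whether marker genes of T cells carry peaks was not analysed here.

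Open chromatin is depleted of nucleosomes, and within one accessible region several stretches of free DNA can lie side by side, separated by nucleosomes or bound proteins. Promoters with alternative or divergent start sites and enhancers with neighbouring factor-binding sites are known examples. A peak caller joins such stretches into one peak when the signal between them stays above its threshold, and the summit then marks the highest of them. A summit can therefore move within a region that stays open in both lines.

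Most displacements were between 300 and 500 bp. The narrowest called peaks were 309 bp wide in RPMI-8402 and 261 bp wide in Jurkat, and 940 of the 1003 displaced pairs had summits farther apart than 309 bp. The median distance was 396 bp, with quartiles of 341 and 488.5 bp and a maximum of 1465 bp. Distances of 300 to 399 bp made up 511 pairs (50.9%), and 400 to 499 bp another 255 (25.4%). Distances of 1000 bp or more were found in 27 pairs (2.69%). In the other pairs the median distance was 61 bp, and the summits fell on the same base in 408 pairs (2.73%). The distribution had no gap at the threshold. There were 178 pairs at 300 to 329 bp and 309 pairs at 270 to 299 bp, with 6 at exactly 300 bp and 8 at 299 bp. Just inside lay a pair on chromosome 13 with the RPMI-8402 summit at 50656291 and the Jurkat summit at 50656591. Its pileups were 64 fragments in RPMI-8402 and 95 in Jurkat. The next 2, in order of the chromosome names, were on chromosome 16, with summits at 57626958 in RPMI-8402 and 57626658 in Jurkat, and on chromosome 3, with summits at 113465073 in RPMI-8402 and 113465373 in Jurkat. Just outside were 2 pairs on chromosome 1, with RPMI-8402 summits at 26438178 and 204430785, and 1 on chromosome 11 with its RPMI-8402 summit at 128160186. The pairs named on either side of the threshold were picked for distances of 300 and 299 bp, and their pileups ranged from 21 to 118 fragments.

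The shift went about equally often in both directions along the chromosomes. The RPMI-8402 summit lay at the higher coordinate in 503 displaced pairs (50.1%, 47.0 to 53.3%) and at the lower coordinate in 500 (49.9%, 46.7 to 53.0%). Of the other pairs whose summits differed, the RPMI-8402 summit was at the higher coordinate in 7258 of 14537 (49.9%). Coordinates do not follow the direction of transcription, so these numbers say nothing of a shift upstream or downstream of a gene. In 237 pairs the distance was 500 bp or more, and there the share with the RPMI-8402 summit at the higher coordinate was 43.9%. The pairs at 500 to 599 bp held 37 of 97 such shifts, and those at 600 to 799 bp 37 of 76. At 800 to 999 bp there were 16 of 37, and at 1000 bp or more 14 of 27. For the share of 43.9% no interval was computed, and its difference from 50.1% was not tested.

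**Figure D1:**
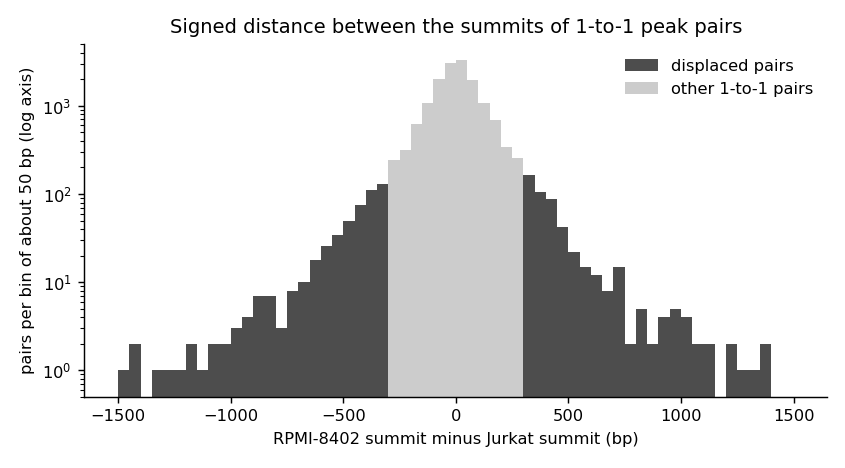
Number of 1-to-1 peak pairs (log axis, bins of about 50 bp) against the RPMI-8402 summit minus the Jurkat summit in bp. The 1003 displaced pairs form the 2 outer flanks, with 503 at positive and 500 at negative values, and both flanks continue the slope of the other pairs.

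In most displaced pairs the peaks of both lines covered both summits. Each summit lay inside the peak of the other line in 651 pairs (64.9%, 61.9 to 67.9%), against 97.2% of the other pairs and 95.1% of all pairs. In the remaining pairs at least 1 line had no called signal at the other's summit. The RPMI-8402 summit alone fell outside the partner peak in 193 pairs (19.2%, 16.8 to 21.8%). The Jurkat summit alone did so in 80 pairs (7.98%, 6.37 to 9.83%), and each summit lay outside the other peak in 79 (7.88%, 6.29 to 9.72%). Among all pairs these shares were, in the same order, 2.74%, 1.44% and 0.677%. The RPMI-8402 summit alone was also outside more often among the other pairs, in 244 against 149 for Jurkat. The greater the distance, the less often both summits were covered by both peaks, with 74.0% at 300 to 399 bp, 60.8% at 400 to 499 bp and 37.8% at 800 to 999 bp. The 27 pairs at 1000 bp or more did not continue this order, with 14 (51.9%).

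Displaced pairs were wide. Their peaks had a median width of 1006 bp in RPMI-8402 and 919 bp in Jurkat, while the peaks of the other pairs had medians of 786 bp in RPMI-8402 and 754 bp in Jurkat. The merged region of both peaks had a median of 1132 bp in displaced and 869 bp in other pairs. A distance of 300 bp needs a region at least that wide, so part of this difference is built into the rule. The narrowest merged region among the members was 391 bp, on which the summits took up most of the length, and the widest was 3289 bp. The summit distance was a median of 38.1% of the merged width in displaced pairs, against 7.11% in other pairs. The summits stood on opposite sides of the middle of the merged region in 894 displaced pairs (89.1%) and in 28.1% of the other pairs. The rule chose the members by their summit distance, so both of these contrasts are largely built in.

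Widths followed the arrangement of the summits. Where each summit lay inside the other peak, the medians were 1100 bp in RPMI-8402 and 1072 bp in Jurkat. There the RPMI-8402 peak was the wider one in 341 of 650 pairs (52.5%, 1 tie left out), against 56.3% of the other pairs of that arrangement. Where the RPMI-8402 summit was outside the Jurkat peak, the medians were 951 bp in RPMI-8402 and 420 bp in Jurkat. Where the Jurkat summit was outside the RPMI-8402 peak, they were 522.5 bp in RPMI-8402 and 830 bp in Jurkat. The RPMI-8402 peak was the wider one in 189 of 193 displaced pairs whose RPMI-8402 summit was uncovered (97.9%), against 92.6% of the other pairs of that arrangement. It was wider in 9 of 80 displaced pairs whose Jurkat summit was uncovered (11.2%), against 25.7% of the other pairs. A summit beyond the edge of the partner peak largely builds in the wider peak, so this order is not particular to displaced pairs. Over all displaced pairs the RPMI-8402 peak was at least 2 times as wide in 129 (12.9%) and the Jurkat peak in 21 (2.09%). Among all 15948 pairs these shares were 4.37% for RPMI-8402 and 0.959% for Jurkat. All autosomal peaks, paired or not, had a median width of 694 bp in RPMI-8402 and 611 bp in Jurkat. The part of the peak calling in these widths was not tested.

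**Figure D2:**
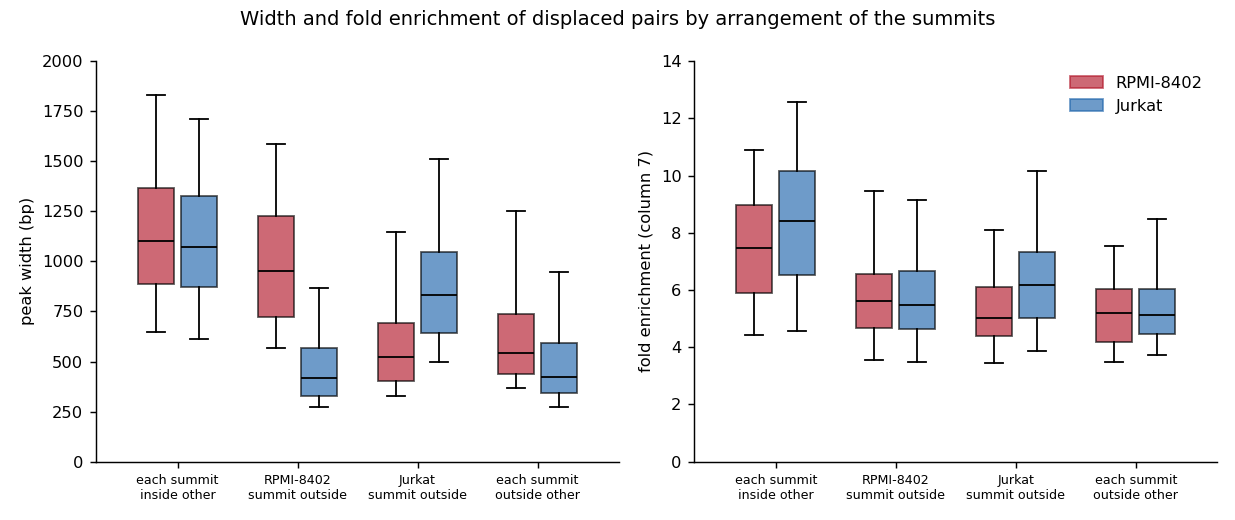
Peak width in bp (left) and deposited fold enrichment (right) of the displaced pairs in RPMI-8402 and Jurkat, by whether each line's summit lies inside the other line's peak (651, 193, 80 and 79 pairs from left to right). Boxes give the median and quartiles and whiskers the 5th and 95th percentiles. The widths of the lines are alike where both summits are covered and part where 1 summit lies outside.

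The fold enrichment over background, column 7 of the authors' lists, was lower at displaced than at other pairs in both lines. In RPMI-8402 the median was 6.58-fold at displaced pairs (quartiles 5.23 and 8.33) and 8.49-fold at other pairs (6.42 and 10.5). In Jurkat it was 7.20-fold at displaced pairs (5.41 and 9.26) and 9.84-fold at other pairs (7.06 and 12.7). The highest values among the members were 15.8-fold in RPMI-8402 and 16.1-fold in Jurkat, against 27.5-fold in RPMI-8402 and 35.2-fold in Jurkat among the other pairs. The summit pileup, solved from the deposited fold and p-value, stood closer in RPMI-8402 and about as far apart as column 7 in Jurkat. Its median was 49 fragments at displaced and 54 at other pairs in RPMI-8402, and 45 at displaced and 61 at other pairs in Jurkat. The local background was a median of 6.53 fragments per base at displaced and 5.40 at other pairs in RPMI-8402, and 5.22 at displaced and 5.24 at other pairs in Jurkat. Column 7 was lower where a summit was not covered by the partner peak. With each summit inside the other peak the medians were 7.46-fold in RPMI-8402 and 8.40-fold in Jurkat. With each outside they were 5.18-fold in RPMI-8402 and 5.11-fold in Jurkat. With the RPMI-8402 summit alone outside they were 5.63-fold in RPMI-8402 and 5.48-fold in Jurkat. With the Jurkat summit alone outside they were 5.03-fold in RPMI-8402 and 6.16-fold in Jurkat. At 662 displaced pairs (66.0%) both lines had a −log10 q of 10 or more, against 81.1% of the other pairs.

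Width and pileup had opposite relations to displacement. Wider peaks are in general stronger, yet at a given merged width displaced pairs were the weaker ones. The merged width spans both peaks, so the peaks themselves were not matched in width. In merged regions of over 800 and up to 1000 bp the median pileup in RPMI-8402 was 31 at displaced and 60 at other pairs, and in Jurkat 28 at displaced and 72 at other pairs. In regions of over 1500 bp it was 83.5 at displaced and 111 at other pairs in RPMI-8402, and 71 at displaced and 116 at other pairs in Jurkat. Displaced pairs made up 0.745% of regions up to 600 bp wide, 7.96% at 1000 to 1250 bp and 23.7% (20.8 to 26.9%) over 1500 bp. Within each width class over 600 bp the share was lower the higher the geometric mean of the pileups, with 1 exception given below. At 1000 to 1250 bp it was 27.4% (21.1 to 34.4%) for pileups up to 30, 15.1% for 30 to 60, 5.20% for 60 to 120 and 2.94% (1.98 to 4.19%) over 120. Over 1500 bp the shares in the same order were 12 of 20 pairs (36.1 to 80.9%), 40.3%, 23.5% and 14.5%. The class at 600 to 800 bp departed from this order at its strong end, with 2 of 683 pairs (0.293%) at 60 to 120 and 1 of 134 (0.746%) over 120. Counting error at the summit is greater at low pileup, and its part in the choice of the summit was not tested. Strong wide regions still held displaced pairs, 45 of 311 over 1500 bp and over a pileup of 120. Over all classes the summit distance of the members had a Spearman rho of 0.37 with the merged width and of 0.01 with the mean pileup. These are descriptions across 1003 regions of the same 2 libraries.

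**Figure D3:**
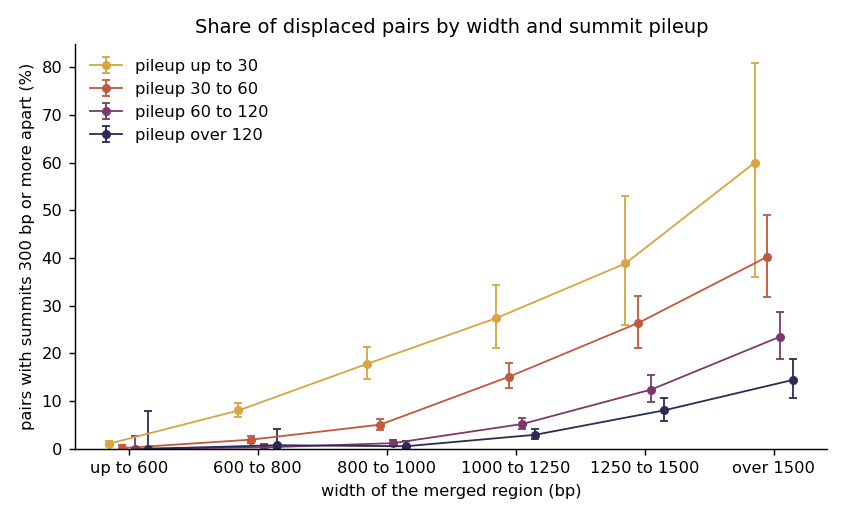
Share of 1-to-1 pairs whose summits lie 300 bp or more apart (%), by width of the merged region in bp, in 4 classes of the geometric mean of both summit pileups. Points are shares and bars exact 95% binomial intervals. The share increases with width in the 3 weaker classes at every step and, in pileups over 120, at every step but that from 600 to 800 bp to 800 to 1000 bp.

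The lines had similar signal at most displaced pairs, with more of the rest higher in RPMI-8402, an order that turned with the scaling. Ratios are RPMI-8402 over Jurkat pileup, divided by the median ratio of all pairs (−0.18 on the log2 scale). The median centred log2 ratio was 0.26 at displaced pairs and −0.02 at other pairs. Of the members, 800 (79.8%) differed by less than 2-fold, against 86.3% of the other pairs. The pileup was 2-fold or more higher in RPMI-8402 at 165 displaced pairs (16.5%, 14.2 to 18.9%), where the share of all pairs was 9.11%. It was 2-fold or more higher in Jurkat at 38 displaced pairs (3.79%, 2.69 to 5.16%), where the share of all pairs was 4.97%. When pileups were scaled by each library's lowest background instead, which puts the median of all pairs at −0.48, the order of the lines turned round to 59 pairs (5.88%) higher in RPMI-8402 and 120 (12.0%) higher in Jurkat. Displaced pairs still exceeded all pairs in the RPMI-8402 direction there (3.18% of all pairs) and stayed under them in the Jurkat direction (18.9%). On column 7, centred likewise, 18 displaced pairs (1.79%) were 2-fold higher in RPMI-8402 and 8 (0.798%) in Jurkat, against 1.34% of all pairs in RPMI-8402 and 0.326% in Jurkat. On that measure, unlike on pileup, the share of displaced pairs was above that of all pairs in both directions, though on few pairs.

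For the centred pileup the order seen over all displaced pairs also held where each summit was inside the other peak. There 92 of 651 pairs (14.1%) were 2-fold higher in RPMI-8402 and 22 (3.38%) in Jurkat. The shares of the other pairs of that arrangement were 8.30% in RPMI-8402 and 5.03% in Jurkat. Where the RPMI-8402 summit lay outside the Jurkat peak, 60 of 193 displaced pairs (31.1%) were higher in RPMI-8402 and 1 (0.518%) in Jurkat, against 29.5% of the other pairs of that arrangement in RPMI-8402 and 1.64% in Jurkat. With the Jurkat summit outside the RPMI-8402 peak, 5 of 80 displaced pairs (6.25%) were higher in RPMI-8402 and 12 (15.0%) in Jurkat, against 6.04% of the other pairs in RPMI-8402 and 12.1% in Jurkat. In both of these arrangements the displaced pairs were thus near the share of the other pairs. The contrast with the other pairs differed by strength. Up to a mean pileup of 30, 17.9% of displaced and 14.5% of other pairs were 2-fold higher in RPMI-8402, and 3.65% of displaced and 4.24% of other pairs in Jurkat. At 30 to 60 the RPMI-8402 shares were 21.5% of displaced and 12.0% of other pairs, and the Jurkat shares 7.06% of displaced and 7.59% of other pairs. At 60 to 120 the RPMI-8402 shares were 13.7% of displaced and 4.44% of other pairs, and the Jurkat shares 0.830% of displaced and 4.27% of other pairs. The Jurkat shares thus lay close together below a pileup of 60, a range that holds 301 and 340 of the members. Over 120 the RPMI-8402 shares were 4.13% of displaced and 1.84% of other pairs, and the Jurkat shares 0.826% of displaced and 2.98% of other pairs. Among pairs up to 30 with each summit inside the other peak, the median log2 ratio was 0.23 at displaced and 0.25 at other pairs, and the Jurkat share was 6.58% of displaced and 4.22% of other pairs. The median ratio was higher in displaced than in other pairs on 22 of 22 autosomes, by 0.11 to 0.55 on the log2 scale. Chromosomes share the same 2 libraries and are not replicates. Across pairs the log2 pileups of the lines had a Pearson r of 0.76 at displaced and 0.81 at other pairs, and the widths a Spearman rho of 0.61 at displaced and 0.73 at other pairs, over 1003 displaced and 14945 other regions of the same libraries.

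**Figure D4:**
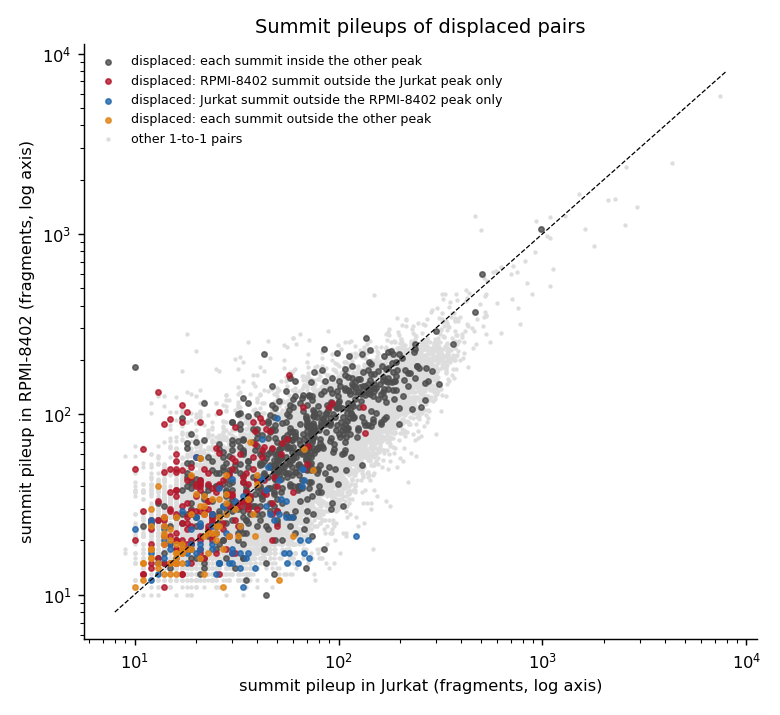
Summit pileup in RPMI-8402 against Jurkat (fragments, both axes log) for the displaced pairs, coloured by the arrangement of the summits, over the other 1-to-1 pairs in grey. The dashed line marks equal, unscaled pileups. Pairs with a summit outside the partner peak sit at low pileups, and those with the RPMI-8402 summit outside lie mostly above the line.

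The plainest cases were regions with the same borders in both lines and a different summit. Both edges of the peaks agreed within 100 bp in 224 displaced pairs (22.3%), against 39.2% of all pairs. This subset was chosen after the values were seen. It was wider and stronger than the members as a whole, with median widths of 1103.5 bp in RPMI-8402 and 1133.5 bp in Jurkat and median pileups of 83 fragments in RPMI-8402 and 74 in Jurkat. Its summits were a median of 378 bp apart. The RPMI-8402 summit was at the higher coordinate in 106 of the 224 (47.3%). In pileup 194 (86.6%) differed by less than 2-fold, near the share of all pairs (85.9%). In such a pair each line has its highest pileup at one place and, at the other line's summit, a pileup that is at most equal to that maximum. How far below it lies cannot be read from the lists, which give 1 summit per peak.

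The most distant summits belonged to a region on chromosome 4 that both lines had called almost alike. The RPMI-8402 peak covered positions 140476486 to 140478478 and the Jurkat peak 140476448 to 140478560, so the edges differed by 38 and 82 bp. The RPMI-8402 summit was at 140476708 and the Jurkat summit at 140478173, 1465 bp apart, near opposite ends. The pileups were 58 in RPMI-8402 and 62 in Jurkat, a centred ratio of 1.06 (95% interval 0.725 to 1.54), and column 7 was 5.24-fold in RPMI-8402 and 5.97-fold in Jurkat. The interval of the ratio contains 1, so the difference in height was within counting error.

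A region on chromosome 10 was similar, with a RPMI-8402 peak at 89621602 to 89623672 and a Jurkat peak at 89621686 to 89623649. Its summits were at 89622004 in RPMI-8402 and 89623351 in Jurkat, 1347 bp apart. The pileups were 99 (95% Poisson interval 80.5 to 121) in RPMI-8402 and 117 (96.8 to 140.2) in Jurkat, and column 7 was 5.28-fold in RPMI-8402 and 8.46-fold in Jurkat. Counts of fragments were close in the lines while the enrichment was lower in RPMI-8402, where the background was also higher. A second region on chromosome 10, 17270215 to 17272571 in RPMI-8402 and 17270751 to 17272818 in Jurkat, had summits 1408 bp apart with pileups of 142 in RPMI-8402 and 128 in Jurkat. On chromosome 17 the RPMI-8402 peak at 72732802 to 72734663 had its summit 1246 bp below the Jurkat summit, and both lay in both peaks. The pileups there were 83 in RPMI-8402 and 33 in Jurkat, so this pair combined a displaced summit with a difference in signal, a centred ratio of 2.84 (1.88 to 4.39).

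The other 6 of the 10 most distant pairs had a summit outside the partner peak, and their peaks overlapped only in part. The pair on chromosome 13, at 74861240 to 74862807 in RPMI-8402 and 74862361 to 74863014 in Jurkat, had summits 1412 bp apart and pileups of 34 in RPMI-8402 and 24 in Jurkat. The pair on chromosome 6, at 6331055 to 6332737 in RPMI-8402 and 6330884 to 6331252 in Jurkat, had summits 1378 bp apart and pileups of 32 in RPMI-8402 and 28 in Jurkat. The pair on chromosome 12 at 48212717 to 48214139 in RPMI-8402 had a distance of 1274 bp and pileups of 36 in RPMI-8402 and 28 in Jurkat. In these 3 each summit lay outside the other peak, and the intervals of the pileups overlapped. A pair of long peaks on chromosome 4, 124317922 to 124320937 in RPMI-8402 and 124317649 to 124319777 in Jurkat, had summits 1357 bp apart and pileups of 95 in RPMI-8402 and 50 in Jurkat, and there the Jurkat summit alone was uncovered. The RPMI-8402 summit alone was uncovered on chromosome 12, with a peak at 85305071 to 85306750, a distance of 1328 bp and pileups of 50 in RPMI-8402 and 22 in Jurkat. It was also uncovered on chromosome 7, where the RPMI-8402 peak at 75931593 to 75933506 overlapped a Jurkat peak of 317 bp, with pileups of 60 in RPMI-8402 and 33 in Jurkat. That Jurkat peak lay at the upper end of the RPMI-8402 peak, and the summits were 1258 bp apart.

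**Figure D5:**
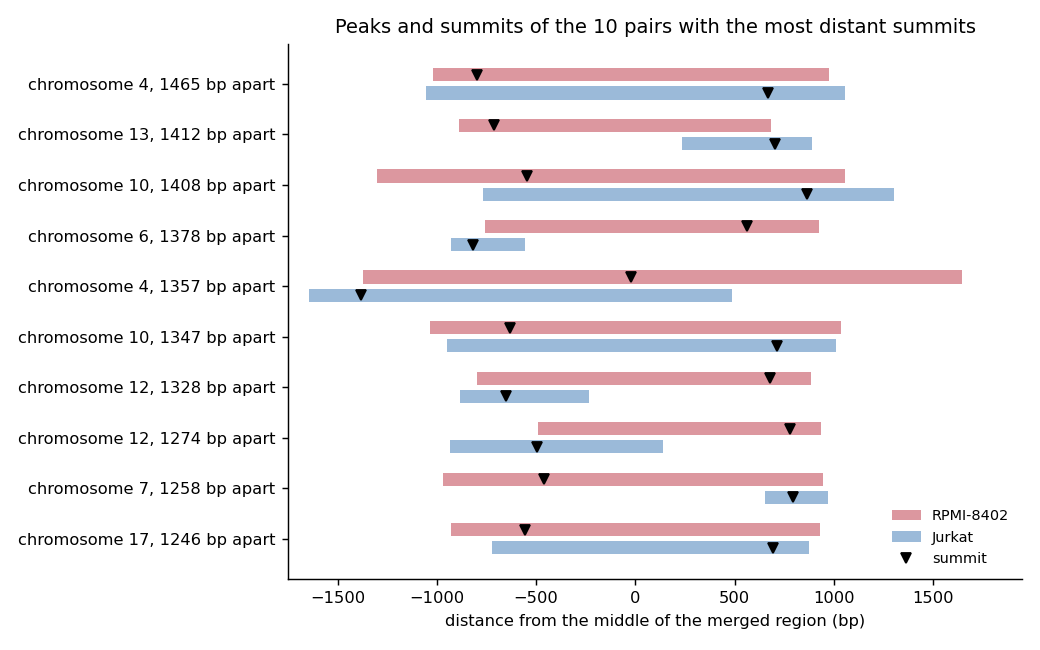
Extent of the RPMI-8402 peak (upper bar) and the Jurkat peak (lower bar) and their summits (triangles) in the 10 displaced pairs with the most distant summits, in bp from the middle of the merged region. In 4 of the 10 both summits lie in both peaks, among them the pair 1465 bp apart, and in the other 6 at least 1 summit lies outside the partner peak.

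Over a mean pileup of 120, each summit lay inside the other peak in 121 of 121 displaced and 2449 of 2450 other pairs. The same was therefore true of 10 of 10 of the strongest displaced pairs, ranked by the geometric mean of both pileups. The first was a region on chromosome 6, 58776320 to 58779429 in RPMI-8402 and 58776291 to 58779438 in Jurkat, with pileups of 1068 (1005 to 1134) in RPMI-8402 and 983 (923 to 1046) in Jurkat. Its fold enrichments were only 3.89 in RPMI-8402 and 4.36 in Jurkat, beside a local background of 274 fragments per base in RPMI-8402 and 225 in Jurkat. The lists were not filtered here against regions with excess signal, and the part of such signal in this region was not tested. Without the 6 displaced pairs that had a pileup of 300 or more in either line, 997 remained. The second was on chromosome 3, 167452267 to 167453804 in RPMI-8402, with summits 344 bp apart and pileups of 602 in RPMI-8402 and 507 in Jurkat. Its column 7 was 11.3-fold in RPMI-8402 and 11.4-fold in Jurkat.

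The third, on chromosome 4 at 68265433 to 68266055 in RPMI-8402 and 68265433 to 68266048 in Jurkat, was narrow, and its summits lay 328 bp apart with pileups of 368 in RPMI-8402 and 468 in Jurkat. The fourth, on chromosome 2 at 153573616 to 153575470 in RPMI-8402, had summits 570 bp apart and pileups of 244 (214 to 277) in RPMI-8402 and 365 (329 to 404) in Jurkat. The fifth, on chromosome 3 at 31573474 to 31574856 in RPMI-8402, had summits 443 bp apart and pileups of 288 in RPMI-8402 and 302 in Jurkat. The next 5 had summits 320 to 458 bp apart. They lay on chromosome 1 at 249119870 and 143283084, chromosome 7 at 21466524, chromosome 18 at 45456609 and chromosome 10 at 25304887, positions that are the starts of the RPMI-8402 peaks. Their pileups ran from 174 to 246 in RPMI-8402 and from 235 to 286 in Jurkat. In all 10 the centred ratio was under 2-fold, between 0.687 and 1.34. Ratios of 2-fold or more were rare over a mean pileup of 120. They made up 4.13% of displaced and 1.84% of other pairs towards RPMI-8402, and 0.826% and 2.98% towards Jurkat.

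The 5 displaced pairs with the largest ratio in favour of RPMI-8402 combined a full peak in RPMI-8402 with a weak, narrow one in Jurkat. At chromosome 12, positions 133656652 to 133657726, the RPMI-8402 pileup was 182 (157 to 210), and that of the Jurkat peak, 396 bp wide, was 10 (4.80 to 18.4). The Jurkat summit was 343 bp above the RPMI-8402 summit, and the centred ratio was 20.5 (10.9 to 43.6). At chromosome 3, positions 172783115 to 172784400, the pileups were 132 in RPMI-8402 and 13 in Jurkat, a ratio of 11.5 (6.48 to 22.1). In 4 of these 5 the RPMI-8402 summit was outside the Jurkat peak. The other 3 lay on chromosome 4 at 94749430 to 94750618, chromosome 8 at 83103340 to 83104200 and chromosome 3 at 167812643 to 167814300, with ratios of 7.44, 7.10 and 7.08. The Jurkat pileups of these 5 pairs were 10 to 17 fragments, near the weakest called summit of that library, 9.

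In the other direction the largest ratio was smaller. At chromosome 2, 181845240 to 181845770 in RPMI-8402 and 181844798 to 181845554 in Jurkat, the pileups were 21 in RPMI-8402 and 122 in Jurkat. The Jurkat signal was 5.15 times as high after centring (3.22 to 8.61), and its summit, 358 bp away, was outside the RPMI-8402 peak. The next 4 were on chromosome 12 at 121197856, chromosome 2 at 46394, chromosome 4 at 49179569 and chromosome 11 at 32417701, with Jurkat 4.37, 4.18, 3.99 and 3.90 times as high. Their RPMI-8402 pileups were 10 to 18 fragments, near the weakest called summit of that library, 10. These 10 pairs were picked for their ratio, so the values describe them and test nothing.

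Displaced pairs were spread over the autosomes. The share of pairs ranged from 4.75% on chromosome 20 (18 of 379, 2.84 to 7.40%) to 9.21% on chromosome 21 (14 of 152, 5.13 to 15.0%), and the intervals of these extremes overlapped. Chromosomes 17 and 6 followed chromosome 21 with 7.66% (63 of 822) and 7.19% (66 of 918). The 20 displaced pairs of chromosome 13 had a median of −0.34 on the centred log2 scale, against −0.62 over its pairs as a whole. The 44 of chromosome 4 had 0.57, against 0.31. Of 15926 neighbouring pairs along a chromosome, both were displaced in 74 (0.465%), and 11 of these lay within 10 kb of each other. The share to be expected of unrelated neighbours was not computed, and clustering was not tested.

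The requirement of 1 partner per peak leaves out regions that are a single peak in one line and several in the other. On the autosomes 233 RPMI-8402 peaks overlapped 2 or more Jurkat peaks, against 11 Jurkat peaks that overlapped 2 or more RPMI-8402 peaks. The RPMI-8402 list had wider peaks throughout, with an autosomal median of 694 bp against 611 bp in Jurkat. The part of this and of the peak calling in the contrast was not tested. Of the 230 RPMI-8402 peaks with exactly 2 Jurkat partners, the RPMI-8402 summit lay in the Jurkat partner with the higher pileup in 157 and in the one with the lower pileup in 45. It was outside both in 25, and in 3 the partners had equal pileups. In those 25 regions the RPMI-8402 summit thus lay apart from both Jurkat summits. Distances between summits were not computed for the 230 regions, and the displaced pairs do not count them.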

How the data were processed

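Reads were paired-end, 150 bp, per the labels' protocols. The submitters' processing notes name Bowtie2, Picard, SAMtools, MACS2 and the build hg19. How reads were filtered or shifted for Tn5 is not given in the sources used here. The authors deposited 1 peak list of 10 columns per library, so no libraries were pooled. The deposited score, column 8 times 10 without its decimals, was not used. Column 7 is the authors' fold enrichment, a ratio of summit signal to local background, and columns 8 and 9 are the deposited −log10 p-value and −log10 q-value. The lowest −log10 p-value was 5.00 in RPMI-8402 and 5.03 in Jurkat. Summits are column 2 plus column 10, printed counting from 1.

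The total reads of a library are unknown here. The pileup and background at each summit were solved from fold and p-value. The fold was read as the ratio of pileup and background, each raised by 1, and p as a Poisson tail. The solved pileup was a whole number, to 1% of a step, for 100.0% of the peaks of both libraries. Lowest backgrounds were 1.96 in RPMI-8402 and 1.59 in Jurkat. Pairs, shares with exact 95% binomial intervals, Poisson intervals of pileups and exact conditional intervals of ratios were computed with scipy 1.17.1, pandas 2.3.3 and numpy 2.4.6 under Python 3.11.15. The scripts were tested on simulated pileups and planted shifts.

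The members and the pairs named were chosen with earlier results of these data known. Named pairs are the 10 strongest, the 10 most distant, the 5 of largest ratio per direction and 3 on each side of the threshold. Alternatives were other summit distances, a reciprocal overlap of 50%, −log10 q of at least 10, adding chromosome X, and other scalings of the pileup. An hg19 genome or annotation was not used here, so the planned counts at start sites, motifs, GC content and marker genes were not run.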

Additional observations from a re-analysis of the deposited data

Results flagged for a closer look

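Chromosome X was outside the autosomal rule and also held displaced pairs, 34 of 529 1-to-1 pairs (6.43%, exact 95% binomial interval 4.49 to 8.87%), with no control sample to set them against. Their summits were a median of 377 bp apart and at most 1113 bp, and the RPMI-8402 summit was at the higher coordinate in 17. The median widths of these peaks were 1037 bp in RPMI-8402 and 908 bp in Jurkat.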

How the results depend on the processing

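The settings without pairs of pileup 300 or more, the scaling by the lowest background and the restriction to pairs with each summit inside the other peak were chosen after seeing the data. With summit distances of 200 or 500 bp and more, which change the members by construction, displaced pairs numbered 2158 and 237, or 13.5% and 1.49% of pairs. Their median distances were 292 and 636 bp, their median widths 908.5 and 1289 bp in RPMI-8402 and 838.5 and 1048 bp in Jurkat, and their median folds 6.82 and 5.89 in RPMI-8402 and 7.47 and 6.63 in Jurkat. Each summit was inside the other peak in 74.1% and 49.8%, and the RPMI-8402 summit was at the higher coordinate in 43.9% at 500 bp. An overlap of at least 50% of both peaks gave a share of 5.15%, widths of 1069 bp in RPMI-8402 and 1042.5 bp in Jurkat, folds of 7.10 and 7.95, and 84.5% with each summit inside the other peak. Lists at −log10 q of at least 10 gave 5.36%, 1146 and 1057.5 bp, folds of 7.36 and 8.35, and 81.9%. Pairs 2-fold higher in RPMI-8402 numbered 18 on column 7, 59 when scaled by the lowest background and 92 with each summit inside the other peak. Those higher in Jurkat numbered 8 on column 7, 120 when scaled by the lowest background and 22 with each summit inside. Without centring 124 were higher in RPMI-8402 and 64 in Jurkat, and the shares of all pairs were not computed at that setting. Over these alternatives 36 values moved and 20 stayed within their interval or 1.5 times the count, and where fewer or other pairs do not account for a move the cause was not tested. Adding chromosome X moved no value. No paired analysis was possible because a line is a single library here, and for the same reason none was left out. Pileups of 10 fragments in RPMI-8402 and 9 in Jurkat were the weakest called, and at such depths the place of a summit rests on few fragments.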

Other observations

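Displaced pairs followed each other directly in runs of at most 3, of which there were 6. The first in order of the chromosome names lay on chromosome 17, positions 3819244 to 4047422. Among regions with both edges alike within 100 bp, which were picked with their values known, the RPMI-8402 peak on chromosome 1 at 16160932 to 16162797 and its Jurkat partner had summits 1039 bp apart with pileups of 157 in RPMI-8402 and 124 in Jurkat. Of that kind also was a region on chromosome 4 at 49514499 to 49516095 in RPMI-8402, with summits 1240 bp apart and pileups of 108 in RPMI-8402 and 198 in Jurkat.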
